A study of Mus musculus with 3 samples.

Results

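NR2F2 binding was described at 10 genes of the insulin-like growth factor system in the fetal mouse testis. The genes were the ligands Igf1, Igf2 and Insl3, the receptors Igf1r, Igf2r and Insr, the adaptors Irs1 and Irs2, and the binding proteins Igfbp3 and Igfbp5. A peak was taken for a gene when the gene had the transcription start site (TSS) nearest to it among curated RefSeq transcripts, or when a TSS of the gene was at most 100 kb away. By this rule 17 of the 10069 NR2F2 peaks belonged to the set, and 8 of the 10 genes had at least 1 peak.

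NR2F2, also called COUP-TFII, is an orphan nuclear receptor that is found in interstitial cells of the fetal testis. Its binding was measured by chromatin immunoprecipitation and sequencing (ChIP-seq) in whole testes of outbred CD-1 embryos at E14.5, dissected free of the mesonephros. There were 2 NR2F2 ChIP libraries, each from 30 pooled testes and from a separate experiment, and 1 input library made from fragmented chromatin that was not immunoprecipitated. No mutant, treatment or second time point was part of the series, and the pooled tissue does not show in which cell type, or on which parental allele, a site was bound.

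IGF1 and IGF2 are secreted peptides that signal through the receptor tyrosine kinase encoded by Igf1r, and in part through the insulin receptor encoded by Insr. Irs1 and Irs2 encode the docking proteins that pass the signal of both receptors to the PI3 kinase and AKT cascade, IGF2R binds IGF2 and carries it to lysosomes, and the IGFBP proteins bind IGFs outside the cell and limit or prolong their action. In the testis, receptors of the insulin family are needed for testis determination, and INSL3, a relaxin-family hormone of fetal Leydig cells, drives the descent of the testis. Igf2 and Igf2r are imprinted, and Airn is the non-coding RNA transcribed antisense to Igf2r.

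Nuclear receptors of this family bind the core motif AGGTCA, often as direct repeats, and a pair of such motifs with 1 base between them is called a DR1. Sequence around the matches is shown for 4 genes, taken from the peak of each gene with the highest ChIP count, because these peaks carry the different forms in which the motif was found: a lone core, a DR1, an array and a spaced group. Each run is read 5′ to 3′ on the strand of the gene from the RefSeq assembly GRCm38.p6 (mm10), with up to 30 bases on either side of the matches, and capitals mark AGGTCA or its reverse complement TGACCT and, inside a DR1 or array, also GGGTCA or TGACCC.
Igfbp5 71.453 kb upstream of the TSS, chr1:72946459-72946552, minus strand: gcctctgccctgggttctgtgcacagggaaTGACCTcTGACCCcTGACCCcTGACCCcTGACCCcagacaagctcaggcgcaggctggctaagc
Igfbp3 53.454 kb downstream of the TSS, chr11:7160170-7160231, minus strand: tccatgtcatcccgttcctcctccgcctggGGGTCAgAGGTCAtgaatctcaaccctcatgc
Igf2 20.307 kb downstream of the TSS, chr7:142636999-142637164, minus strand: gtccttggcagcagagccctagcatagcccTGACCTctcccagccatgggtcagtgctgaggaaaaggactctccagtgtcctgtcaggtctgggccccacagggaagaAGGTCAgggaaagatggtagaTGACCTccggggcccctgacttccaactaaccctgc
Igf2r at the TSS, chr17:12769707-12769747, minus strand: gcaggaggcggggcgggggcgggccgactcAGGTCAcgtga
The Igfbp5 window held 5 motifs in a row, each 1 base from the next, 1 of them AGGTCA and the others GGGTCA when read on the opposite strand. The Igfbp3 window held 1 DR1, the Igf2 window 3 separate AGGTCA motifs, and the Igf2r window 1 AGGTCA whose last base lay 6 bases upstream of the annotated TSS.

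A count is the number of reads in a 300 bp peak as deposited. Summed over all peaks, the input held 73251 counts, ChIP replicate 1 held 426784 and ChIP replicate 2 held 364261, and the 17 peaks took 147, 791 and 642 of these. Whole-library depths were not used here, so a ratio of ChIP to input counts is known only up to a factor common to all peaks. Ratios are therefore read against the other peaks, and ChIP above input was not tested, because the peaks were called on these same ChIP reads.

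Beside the 8 of 10 genes with at least 1 peak, 69.5% of 26180 curated genes had one by the same rule. As nearest gene of a peak, 3 of the 10 genes were found (Igf1r, Igf2r and Igfbp3), with 7 of the 17 peaks, beside a background of 30.3% of genes. Igf2r had 5 peaks, a number reached by 6.77% of genes. Insl3, Igf1r, Irs1, Irs2 and Igfbp3 had 2 peaks each, and Igf2 and Igfbp5 had 1.

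Of the 17 peaks, 14 lay more than 10 kb from the TSS of the gene they were assigned to, which the limit of 100 kb allows. From the nearest TSS of any gene, 11 of 17 lay more than 10 kb away, against 32.9% of all peaks. Relative to the assigned gene, 9 lay upstream, 7 downstream and 1 across the TSS. The midpoints of 7 peaks lay outside any gene, and 2 peaks overlapped the gene of the set itself. Within 1 kb upstream of, or at, any TSS lay 2 of the 17 peaks, against 36.0% of all peaks, and 1 of these was at the TSS of Rhbdd1, not of a gene of the set.

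**Figure D1:**
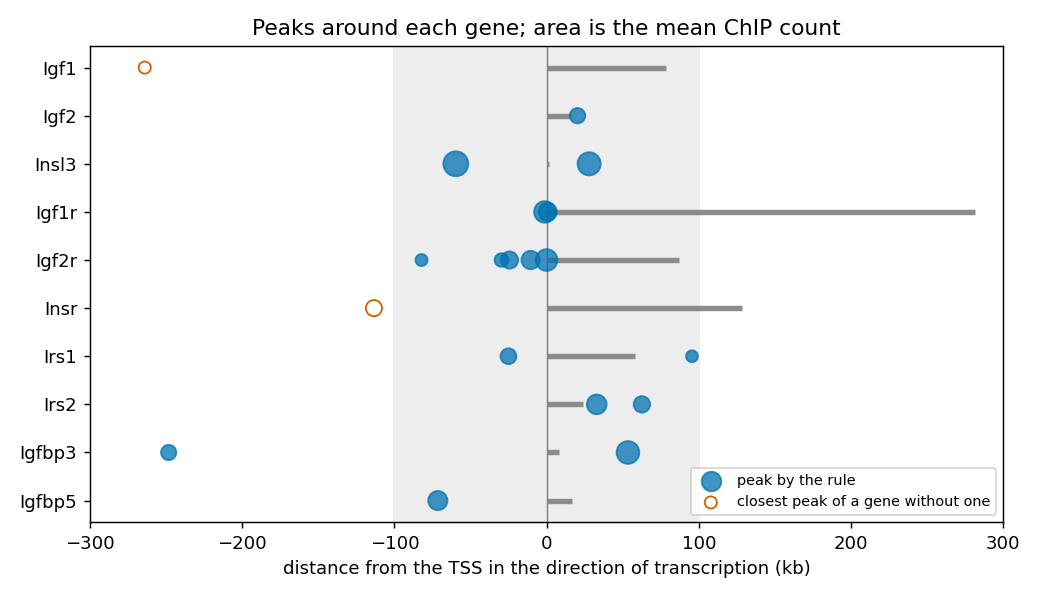
Position of the peaks (kb from the TSS, upstream to the left) for each of the 10 genes, which are drawn as grey bars in the direction of transcription. Circle area is the mean count of the 2 ChIP libraries, shading marks 100 kb on either side of the TSS, and open circles are the closest peaks of Igf1 and Insr, at 264.018 and 113.447 kb.

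Among the ligands, Igf1 had no peak. The gene (chr10:87858265-87937047, plus strand, 3 TSSs) had its closest peak 264018 bp upstream, with 4 counts in the input and 12 and 24 in the ChIP replicates. Of all curated genes, 84.5% had a closer peak than Igf1 did.

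Igf2, the main fetal growth factor of the family, had 1 peak at chr7:142636890-142637189. It lay outside any gene, 20307 bp downstream of the nearest of the 4 Igf2 TSSs and 13579 bp past the 3′ end of Igf2. Its nearest TSS, at 17807 bp, was that of the microRNA gene Mir483, which lies inside Igf2 and was counted as a separate gene. The input had 5 counts and the ChIP replicates 35 and 24. Both ChIP counts were above the input, and their sum was at percentile 38.4 of all peaks. With 3 copies, this peak held the most AGGTCA motifs of the 17.

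The peaks near Insl3 had the highest summed ChIP counts of the set, led by replicate 1, and both lay in other genes. In replicate 2 the downstream Igfbp3 peak, with 67 counts, was above both. The upstream peak, chr8:71629314-71629613, was 59639 bp from the Insl3 TSS in a coding exon of Unc13a, which encodes a protein of synaptic vesicle priming, and nearest to Mir6769b. It had 12 input counts and 97 and 56 ChIP counts, a sum at percentile 94.5 of all peaks. The downstream peak, chr8:71717198-71717497, was 27946 bp from the TSS in an intron of Fcho1, an endocytosis gene, with 9 input counts and 86 and 46 ChIP counts. In both, replicate 1 was well above replicate 2, and the exact two-sided binomial test given the totals at peaks gave p = 0.0228 and p = 0.0111, with Benjamini-Hochberg adjusted values over all peaks of 0.449 and 0.380. The gene between them (chr8:71689252-71690577) contained no peak.

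Among the receptors, Igf1r had a pair of peaks on either side of its promoter. The first, chr7:67950824-67951123, lay 1134 bp upstream of the TSS and had 8 input counts and 62 and 53 ChIP counts. The second, chr7:67952994-67953293, lay 737 bp downstream in an Igf1r intron and had 4 input counts and 36 and 46 ChIP counts. The peaks were 1871 bp apart, and ChIP counts exceeded the input in both replicates at each. Neither held AGGTCA, and at 73.7% and 68.7% their GC content was above the median of 60.7% over all peaks. Igf1r itself extends over 281.411 kb (chr7:67952257-68233667), and curated models placed no further peak within 100 kb of its TSS. Another peak inside the gene, chr7:68129145-68129444 with 5 input counts and 25 and 21 ChIP counts, lay beyond that limit. Its nearest curated TSS was that of Pgpep1l, at 134789 bp, so the rule left it out.

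Igf2r had 5 peaks, all at or upstream of its TSS (gene at chr17:12682406-12769706, minus strand) and all within the transcribed region of Airn. The peak over the TSS, chr17:12769690-12769989, covered 17 bases of the first Igf2r exon and had 13 input counts and 65 and 51 ChIP counts. It was followed upstream by chr17:12780168-12780467 at 10462 bp with 10 input counts and 46 and 38 ChIP counts, and by chr17:12794075-12794374 at 24369 bp with 10, 38 and 36. The remaining peaks were lower, with 9, 29 and 17 counts at chr17:12799377-12799676, 29671 bp upstream, and 6, 18 and 18 at chr17:12851877-12852176, 82171 bp upstream in an intron of Mas1, an angiotensin peptide receptor gene. In replicate 1 the counts of the 5 peaks were in order of their distance from the TSS, the nearest being the highest, and in replicate 2 they were in the same order apart from the last pair, at 17 and 18. The raw ChIP to input ratio of each of the 5 peaks, with 0.5 added to each count, was below the median of all peaks, with percentiles of 42.1, 36.4, 26.0, 4.79 and 10.9 in order of distance. Against that, the sum of ChIP counts was above the median at the 3 peaks nearest to the TSS.

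Insr had no peak. The gene (chr8:3150922-3279617, minus strand) had its closest peak 113447 bp upstream, at chr8:3393064-3393363 in an intron of Arhgef18, with 10 input counts and 33 and 31 ChIP counts. A closer peak was found for 71.0% of genes.

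**Figure D2:**
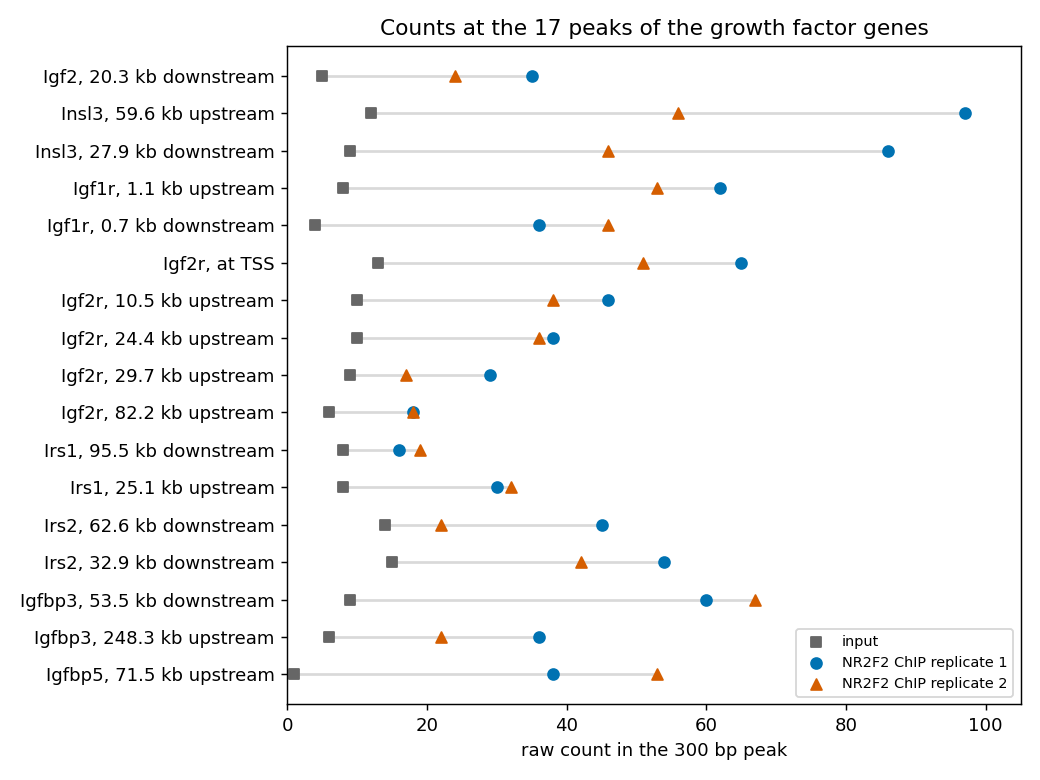
Raw counts (reads in the 300 bp peak, horizontal axis) in the input and both NR2F2 ChIP libraries at each of the 17 peaks, named by gene and distance from its TSS. Both ChIP counts lie above the input at all 17, running from 16 to 97 in replicate 1 and from 17 to 67 in replicate 2, and Igfbp5 has the lowest input, 1 count.

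By the mean log2 ratio of both replicates, the lowest raw ratios of the set were at a peak of each adaptor gene. In each replicate taken alone, an Igf2r peak was second lowest. At Irs1 (chr1:82233105-82291439, minus strand), the peak at chr1:82195619-82195918 lay 95521 bp downstream of the TSS, outside any gene, with 8 input counts and 16 and 19 ChIP counts. The other, chr1:82316489-82316788, lay 25050 bp upstream over the TSS of Rhbdd1, which encodes a rhomboid protease, with 8 input counts and 30 and 32 ChIP counts. At Irs2 (chr8:10984681-11008929, minus strand), both peaks lay past the 3′ end and outside any gene. The one at chr8:10946021-10946320, 62609 bp downstream, had 14 input counts and 45 and 22 ChIP counts, and the one at chr8:10975699-10975998, 32931 bp downstream, had 15, 54 and 42. These inputs were the highest of the set, at percentiles 96.3 and 97.6 of all peaks. All 4 adaptor peaks had a raw ratio below the median of all peaks.

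The binding protein genes held the most distant peak and the peak with the highest ratio. Igfbp3 (chr11:7206086-7213923, minus strand), whose product carries most IGF in serum, had a peak at chr11:7160170-7160469, 53454 bp downstream of the TSS in a coding exon of the adenylate cyclase gene Adcy1, with 9 input counts and 60 and 67 ChIP counts. It also was the nearest gene of a peak 248298 bp upstream, chr11:7462221-7462520, outside any gene, with 6 input counts and 36 and 22 ChIP counts. The downstream peak, which held the DR1 shown above, was the higher of the pair in both ChIP libraries.

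Igfbp5 (chr1:72858065-72874865, minus strand), which encodes a binding protein that also attaches to extracellular matrix, had 1 peak at chr1:72946318-72946617, 71453 bp upstream and outside any gene. Its nearest TSS was that of Tnp1, a transition protein gene of spermatids, at 69282 bp. The input had 1 count and the ChIP replicates 38 and 53. The raw ratios were 38 (exact 95% interval 6.42 to 1540) and 53 (9.11 to 2132), intervals that cover counting error only, and the mean log2 ratio was at percentile 99.3 of all peaks. The ChIP sum was at percentile 72.1, and the input, at percentile 1.12, was among the lowest. All 146 peaks with 1 input count had a ratio above the median. Repeat masking covered 30.0% of the peak. The part of the low input in the ratio was not tested.

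Taking the 17 peaks together, counts ran from 1 to 15 in the input, 16 to 97 in ChIP replicate 1 and 17 to 67 in replicate 2. The medians were 9, 38 and 38 counts, against 7, 37 and 31 over all peaks. The median log2 ratio of ChIP to input, with 0.5 added to each count, was 2.28 in replicate 1 and 1.93 in replicate 2, against 2.35 and 2.13 over all peaks. The ratio was above the median of all peaks at 7 of the 17, and the ChIP sum at 10 of the 17. Both ChIP counts exceeded the input at 17 of 17 peaks and at 99.9% of all peaks, as follows from how peaks were called.

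**Figure D3:**
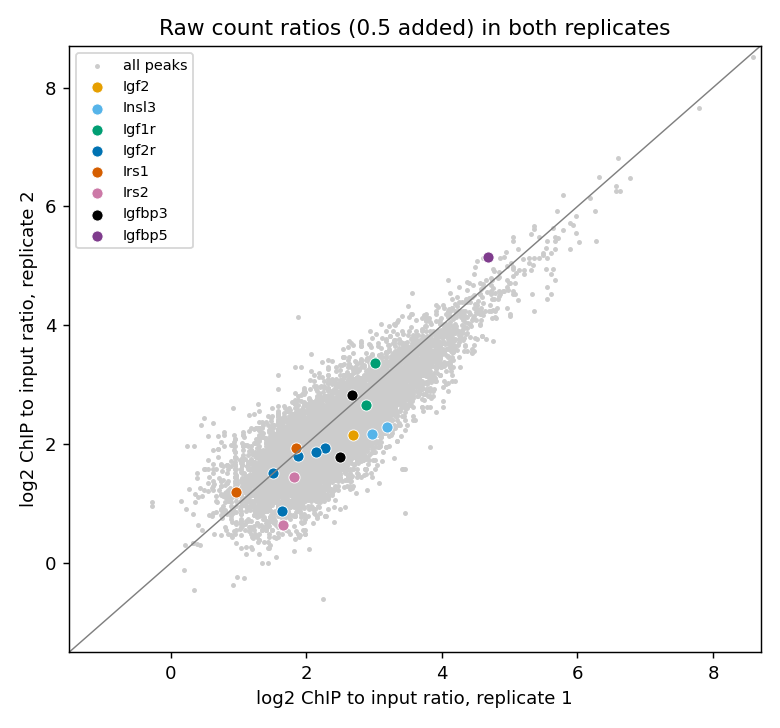
Log2 ratio of raw ChIP to input counts (0.5 added to each count) in replicate 1 (horizontal) and replicate 2 (vertical) for all 10069 peaks in grey and the 17 peaks coloured by gene, with the line of equal ratios. The peaks of Irs1, Irs2 and Igf2r all lie below the median of the mean ratio over all peaks, and the Igfbp5 peak lies at its upper end, at 4.68 and 5.16.

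No difference between the ChIP replicates passed the adjusted test at these peaks. Replicate 1 had the higher count at 11 of the 17 and at 69.3% of all peaks. In the exact two-sided binomial test none of the 17 differed after adjustment (0.0993% of all peaks did), and 4 had an unadjusted p under 0.05 (8.83% of all peaks). These were both Insl3 peaks, the Irs2 peak 62609 bp downstream (p = 0.0365, exact binomial test) and the Igfbp5 peak (p = 0.0207, exact binomial test), which was the only one of the 4 with replicate 2 higher than the totals predict.

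None of the 17 peaks stood apart from the typical peak in the edgeR quasi-likelihood test with Benjamini-Hochberg adjustment over all peaks, which compares the ChIP to input ratio of a peak with that of the others after scaling on the counts at peaks. Over all peaks 1.53% were called above and 0.0497% below the typical ratio, 154 and 5 peaks. These calls depended on the settings. They fell to 0 and 0 with both ChIP libraries set equally deep and the input scaled by the median ratio (equal ChIP depths). With DESeq2 size factors in edgeR they were 39 and 0. DESeq2, which also changes the test and gave no adjusted p for 9370 peaks, called 22 and 0. Among the 2427 peaks with at least 10 input counts, 58 and 4 were called. In the main edgeR fit 2 of 17 had an unadjusted p under 0.05, against 10.4% of all peaks. These were the Igfbp5 peak, with a log2 ratio 3.16 ± 0.97 (SE) above the typical peak and an adjusted p of 0.0641 in edgeR, and the Irs2 peak 62609 bp downstream, at -1.06 ± 0.48 with an adjusted p of 0.382. Each SE was derived from the test, as the size of the log2 ratio divided by the square root of the F statistic. It is not a separate estimate of spread, and at Igfbp5 it rests on 1 input count. In edgeR the adjusted p for Igfbp5 was 0.380 with DESeq2 size factors and 0.866 with equal ChIP depths. The robust fit, with the main scaling, left it at 0.0641. DESeq2 gave no adjusted p for 16 of the 17, Igfbp5 included, and 0.862 for the upstream Insl3 peak.

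By this measure 7 peaks lay above and 10 below the typical ratio, with a median log2 value of -0.16 against 0.016 over all peaks. The Igf1r peaks were at 0.53 ± 0.53 and, in the intron, 1.04 ± 0.68. The Igf2r peaks ran from -0.16 ± 0.46 at the TSS to -0.96 ± 0.60 at 29671 bp upstream. When only peaks with at least 10 input counts were tested, all 6 peaks of the set that remained moved up alike, by 0.32, which put the TSS peak and its neighbour at 0.16 and 0.072. At Irs1 the values were -1.18 ± 0.66 downstream and -0.36 ± 0.58 at the Rhbdd1 promoter. Standard errors ran from 0.44 to 0.97, with 1 to 15 input counts at these peaks.

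**Figure D4:**
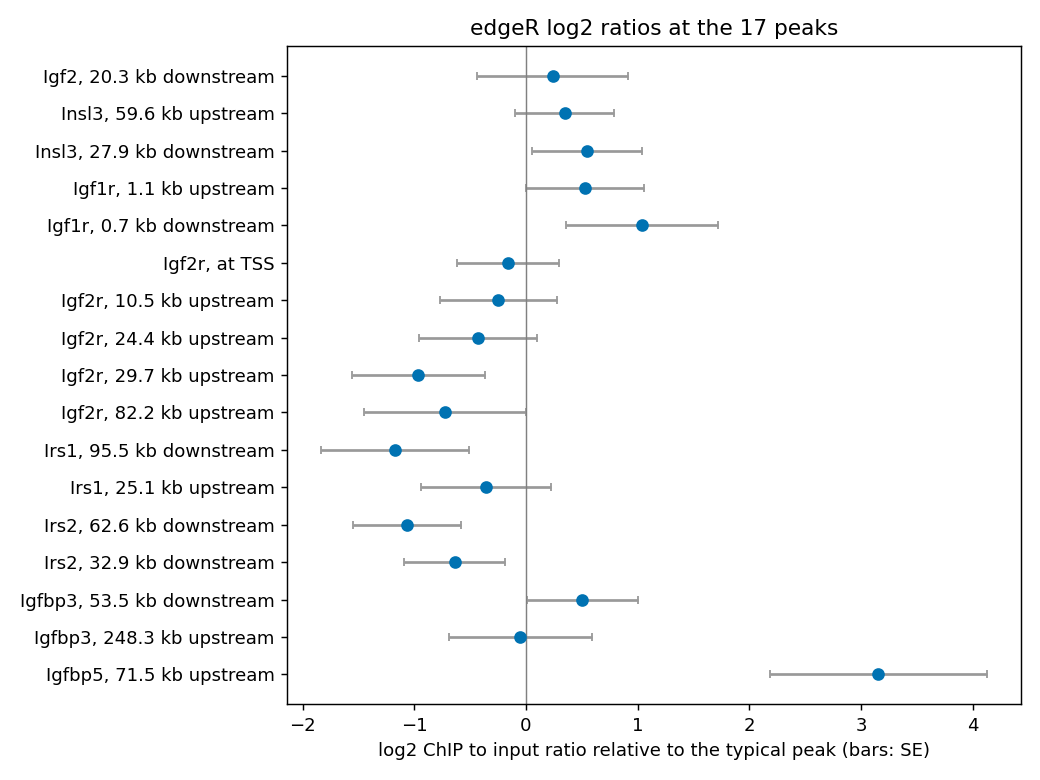
Log2 ChIP to input ratio relative to the typical peak (edgeR, horizontal axis) at each of the 17 peaks, with bars of 1 SE. The SE was derived from the test statistic. Values run from -1.18 at the downstream Irs1 peak to 3.16 at the Igfbp5 peak, and the vertical line at 0 is the typical peak.

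AGGTCA was searched on both strands of each 300 bp peak and found in 10 of the 17, against 37.7% of the 10064 peaks on placed chromosomes. It was present in the Igf2, Igfbp5 and both Igfbp3 peaks, in 3 of the 5 Igf2r peaks and in 1 peak each of Insl3, Irs1 and Irs2, and absent from both Igf1r peaks. In the 7 peaks without it the median GC content was 66.3%, and in the 10 with it 55.2%. In the central 100 bp of the peak it was found in 5 of 17 (19.7% of all peaks). In windows as long as the whole 300 bp peak, placed 2 kb to its left and right, it was found in 4 and 2 of 17 (17.4% of all peaks on either side).

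The longer forms AGAGGTCA, which contains the core motif, or AGGGGTCA, which contains GGGTCA instead, were found in 4 of 17 peaks (10.5% of all peaks), namely those of Igf2 and Igfbp5, the Igf2r peak 10462 bp upstream and the downstream Igfbp3 peak. A DR1 of AGGTCA or GGGTCA, a search added after the data were seen, was present in 2 of 17, those of Igfbp5 and Igfbp3, against 2.37% of all peaks. An array of at least 5 motifs at 1-base spacing, as at Igfbp5, occurred in 3 of 10064 peaks, or 0.0298%. The others were chr10:79983745-79984044 in an intron of Tmem259, with 7 input counts and 165 and 192 ChIP counts, and chr12:54429304-54429603 outside any gene, with 4, 28 and 23. The mean log2 ratios of the 3 were 4.92, 4.57 and 2.52. The median was 2.41 over the 239 peaks with a DR1, 2.25 over peaks with AGGTCA and 2.21 over peaks without it. The value of 4.92, at Igfbp5, rested on 1 input count, and the 146 peaks with 1 input count had a median of 3.93. A match describes the sequence and was not tested as a bound site.

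Peaks at 46 further genes of the pathway were counted by the same rule, and 35 of the 46 (76.1%) had at least 1, beside 69.5% of all curated genes. They shared 2 peaks with the set, because the Igf2 peak lay within 100 kb of Ins2 and of H19, and the downstream Igfbp3 peak within 100 kb of Igfbp1. By role, 5 of 6 ligand genes had a peak, none of them as nearest gene, and the highest was in an intron of Il27ra near Rln3 (5 input counts, 75 and 45 ChIP counts). Of the binding proteins and partners 5 of 6 had one. The highest lay 27400 bp from Igfals, the acid-labile subunit of the circulating IGF complex, and in Fahd1, its nearest gene (12 input counts, 100 and 75 ChIP counts). Of proteases and inhibitors acting on binding proteins 2 of 5 had one, led by a peak 94157 bp from Stc1 (11, 57 and 35). Of further receptors 2 of 4 had one, led by a peak 56233 bp from Rxfp3 and nearest to Amacr (2, 52 and 46).

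Below the receptor, peaks were found for 6 of 9 adaptor and inhibitor genes and for 12 of 12 genes of the kinase cascade, 8 of which were the nearest gene of a peak. Over all curated genes these shares were 69.5% and 30.3%, and with 12 genes the count was not tested. The highest kinase cascade peak lay 6388 bp from Tsc2, which encodes an inhibitor of mTOR signalling. Its nearest gene was Slc9a3r2, and it had 8 input counts and 91 and 106 ChIP counts. At the RNA level 3 of 4 genes had one, led by a peak 34869 bp from H19, the imprinted neighbour of Igf2. That peak was nearest to Mrpl23 and had 12 input counts and 79 and 66 ChIP counts. Of 85 distinct peaks of these genes, 1 was above the typical ratio in edgeR and 0 below, with 15 at an unadjusted p under 0.05, beside 1.53%, 0.0497% and 10.4% of all peaks. It was the peak at the TSS of Shc1, which encodes an adaptor between receptor tyrosine kinases and RAS, chr3:89418461-89418760. With 5 input counts and 111 and 91 ChIP counts it stood 2.01 ± 0.53 on the log2 scale above the typical peak, with an adjusted p of 0.0142 in edgeR and up to 0.866 under the alternatives.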

How the data were processed

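The 17 peaks were read from raw counts per peak in 3 libraries, deposited by the authors, 1 file for each library. Per the study's methods and the submitters' processing notes, single-end reads were trimmed with Trim Galore 0.6.7, aligned to mm10 with Bowtie2, kept above a minimum mapping quality, and Picard 1.110 took out duplicates. The authors pooled both ChIP replicates to call peaks with HOMER, so every peak was selected on the reads later counted in it, and resized peaks to 300 bp. How reads were assigned to peaks was not given in the sources used here. Removing duplicates also caps the count of a short interval.

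Groups and ChIP replicate numbers came from the sample labels. Distances were measured from peak edges to the TSSs of 45756 curated RefSeq transcripts (GRCm38.p6), and 5 peaks on unplaced contigs had no position by gene. The genes and lists were chosen with earlier results of these data known. All 10 genes and all their peaks are described. For other pathway genes only counts, the highest peak of each role and any called peak are named, and sequence is shown for at most 4 genes. Peaks were tested with the quasi-likelihood test of edgeR 4.0.16 (limma 3.58.1, R 4.3.3) on counts of all 3 libraries with TMM factors at peaks, Benjamini-Hochberg adjusted over 10069 peaks at 0.05. The ChIP libraries supply the only spread, and the single input is assumed to vary like them. DESeq2 1.42.0, other scalings, count filters, distance limits and gene models were alternatives. Replicates were compared by exact two-sided binomial tests, which, like the intervals, cover counting error only. Tables and sequences used Python 3.11.15, pandas 2.3.3 and scipy 1.17.1.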

Additional observations from a re-analysis of the deposited data

How the results depend on the processing

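None of the 17 peaks passed the threshold in edgeR under either other scaling or the robust fit. The filter of at least 10 input counts left out 11 of the 17, Igfbp5 included, and called none of the other 6, and DESeq2 gave an adjusted p for 1 of the 17. These settings moved the peaks nearly alike, by a median of 0.32 with the filter, 0.075 with equal depths, -0.023 with DESeq2 size factors and -0.026 with DESeq2, so the sign changed only for values near the reference. These were 3 of 74 alternative values of single peaks, the Igf2r peaks at the TSS and 10462 bp upstream, at 0.16 and 0.072 among the 2427 peaks with at least 10 input counts, and the upstream Igfbp3 peak, at 0.030 with the libraries taken as equally deep and centred. Over all peaks, calls above the typical ratio went from 154 to 0 with equal depths, 39 with DESeq2 size factors, 22 with DESeq2 (which gave no adjusted p for 9370 peaks) and 58 with at least 10 input counts. Calls below went from 5 to 0 with equal depths, 0 with DESeq2 size factors, 0 with DESeq2 and 4 with at least 10 input counts. Counted in both directions together, 485 peaks had an unadjusted p under 0.05 with equal depths, 212 in DESeq2 itself and 890 in edgeR scaled by its size factors. The robust fit again gave 154 above and 5 below. The median log2 ratio of 2.11 became 1.64 with 5 added to each count, and ran from 1.93 to 2.28 leaving out 1 ChIP replicate. The number of peaks went from 17 to 11 by a limit of 50 kb or nearest TSS, 7 by a limit of 10 kb or nearest TSS and 7 by nearest TSS alone, and the genes with a peak from 8 to 3 by a limit of 10 kb or nearest TSS and 3 by nearest TSS alone. GENCODE M21 models, added after the data were seen, gave 18 peaks, with 2 gained and 1 lost, the gained ones at chr7:68129145-68129444 (5, 25 and 21 counts) and chr17:12631750-12632049 (6, 44 and 45). AGGTCA went from 10 peaks to 5 in the central 100 bp, 4 and 2 in windows 2 kb left and right, and 2 as a DR1. The cause of these changes was not tested. No paired analysis was possible because the input has no replicate number, and the edgeR calls could not be refitted without 1 ChIP replicate, which leaves no residual degrees of freedom.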
